A study of Mus musculus with 6 samples.

Results

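The Sox2 domain outside the deleted interval was described from 50 distinct open-chromatin intervals, out of 213406 in all 4 deposited peak lists. They were taken as every listed interval on chr3:34450000-35000000 (mm10) that did not touch chr3:34653747-34670054, the stretch of 16308 bp removed in the mutant line. A further 4 listed intervals lay inside the deleted stretch and were left out. Of the 50 members, 42 stood in a conservative list, the kind that the study retained, and 8 stood in the optimal lists alone. Parent lists held 30 of the members and ΔSRR2–18 lists held 20, and no member had the same borders in lists of both genotypes. The window holds Sox2, the last part of Sox2ot and a few predicted genes and microRNA genes.

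The assay was bulk ATAC-seq, in which a transposase inserts sequencing adapters where DNA is accessible, on neural stem/progenitor cells (NSPCs) differentiated from 129S1/Cast F1 hybrid mouse embryonic stem cells (ESCs). The parent group was 3 cultures of clone 5B, which carries Sox2-mCherry on the 129 allele and no deletion. The ΔSRR2–18 group was 3 cultures of clone 47D, which carries the same tag and lacks the SRR2–18 enhancer cluster on both alleles. Cells of both groups were grown in N2B27 medium with EGF and bFGF on poly-d-lysine and laminin. Each genotype was 1 clone, so the deletion and other differences between these clones cannot be told apart. The authors pooled the cultures into 1 conservative and 1 optimal list per genotype, so the values carry no replicate error and genotype differences were described without a test. In bulk cultures, fewer cells with an open region and less opening per cell cannot be told apart.

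Sox2 encodes a SOXB1 transcription factor that maintains pluripotency in ESCs and the progenitor state in the developing nervous system. It has a single exon and lies inside an intron of Sox2ot, a long noncoding RNA gene transcribed in the same direction from several start sites. In ESCs, transcription of Sox2 depends on a distal enhancer, the Sox2 control region (SCR), about 100 kb downstream of the gene. Enhancers close to the gene (SRR1 upstream, SRR2 and others downstream) are known from neural cells, and SRR1 and SRR2 are also active in reporter assays in ESCs. CTCF is a DNA-binding protein that halts cohesin-driven loops. Upstream of Sox2, the study also deleted SRR1, SRR1 with CTCF sites (3xCTCF), and a longer span with part of the promoter, each on the castaneus allele. For each of them it reported no significant change in the allelic ratio of Sox2 transcripts in NSPCs.

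The guides that border the removed stretch define which regions were left out, and both matched mm10 once on the forward strand of chromosome 3. Each is printed from 5′ to 3′ with its PAM in capitals.
SRR2_5 guide, chr3:34653730-34653752: tctgcccttcagccgagtacCGG
SRR18_3 guide, chr3:34670038-34670060: tgctgttttcgaaaagcctgTGG

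The sequences below are the mm10 reference (C57BL/6J, forward strand) within 100 bp of the strongest summit of 9 regions, so they are not the 129 or castaneus alleles of the cells. They are shown because the comparisons turn on them: the Sox2 promoter, the 3 listed regions upstream of it, the shared regions 79.8 kb upstream and 145.7 kb downstream, 1 region in the window around the SCR, and the regions 154.2 kb upstream and 300.1 kb downstream that were each listed for 1 genotype. Capitals mark exact matches, on either strand, to any of 8 motifs: SOX (ACAANG), POU octamer (ATGCNAAT), AP-1 (TGANTCA), ZIC (CAGCAGG), GC box (GGGCGG), HOX-PBX (TGATTNAT), and the CTCF and NFI consensus.
Sox2 promoter, chr3:34649794-34649994: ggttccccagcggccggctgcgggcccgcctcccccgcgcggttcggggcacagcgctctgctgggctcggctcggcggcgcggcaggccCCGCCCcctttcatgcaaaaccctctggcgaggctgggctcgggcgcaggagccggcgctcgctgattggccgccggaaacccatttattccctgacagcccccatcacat
2.0 kb upstream, chr3:34647847-34648047: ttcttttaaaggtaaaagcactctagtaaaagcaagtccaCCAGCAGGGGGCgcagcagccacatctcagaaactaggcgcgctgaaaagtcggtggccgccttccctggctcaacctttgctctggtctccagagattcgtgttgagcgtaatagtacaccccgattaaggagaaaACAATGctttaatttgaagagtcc
7.2 kb upstream, chr3:34642650-34642850: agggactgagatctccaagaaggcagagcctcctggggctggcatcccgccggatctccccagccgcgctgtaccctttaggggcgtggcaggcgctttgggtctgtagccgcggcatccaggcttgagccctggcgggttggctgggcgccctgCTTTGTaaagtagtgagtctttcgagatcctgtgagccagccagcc
10.6 kb upstream, chr3:34639285-34639485: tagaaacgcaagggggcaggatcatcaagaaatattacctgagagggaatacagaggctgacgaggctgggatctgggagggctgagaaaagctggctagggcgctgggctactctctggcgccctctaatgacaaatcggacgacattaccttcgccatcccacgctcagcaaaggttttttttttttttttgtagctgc
79.8 kb upstream, chr3:34570074-34570274: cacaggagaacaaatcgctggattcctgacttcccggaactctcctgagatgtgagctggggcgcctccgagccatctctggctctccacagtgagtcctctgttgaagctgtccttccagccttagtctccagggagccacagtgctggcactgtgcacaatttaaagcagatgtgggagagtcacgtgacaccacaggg
154.2 kb upstream, chr3:34495698-34495898: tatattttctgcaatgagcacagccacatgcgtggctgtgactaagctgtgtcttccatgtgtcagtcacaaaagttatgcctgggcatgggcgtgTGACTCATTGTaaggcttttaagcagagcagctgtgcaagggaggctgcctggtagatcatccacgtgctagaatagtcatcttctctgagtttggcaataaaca
108.0 kb downstream, chr3:34757934-34758134: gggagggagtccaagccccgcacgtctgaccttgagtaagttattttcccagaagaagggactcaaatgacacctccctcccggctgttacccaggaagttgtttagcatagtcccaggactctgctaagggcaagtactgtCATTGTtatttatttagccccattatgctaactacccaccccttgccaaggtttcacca
145.7 kb downstream, chr3:34795580-34795780: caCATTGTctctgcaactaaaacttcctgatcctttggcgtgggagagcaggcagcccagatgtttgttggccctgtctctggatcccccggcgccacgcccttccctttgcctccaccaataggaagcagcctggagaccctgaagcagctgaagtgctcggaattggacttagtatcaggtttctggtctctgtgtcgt
300.1 kb downstream, chr3:34949957-34950157: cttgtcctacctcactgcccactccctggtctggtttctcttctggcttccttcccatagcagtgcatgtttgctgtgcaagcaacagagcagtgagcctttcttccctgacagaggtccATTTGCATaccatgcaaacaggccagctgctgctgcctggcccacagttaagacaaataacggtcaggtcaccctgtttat

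The promoter window holds a GC box match, the window 2.0 kb upstream holds a CTCF match with a ZIC match inside it and a SOX match, and the window 154.2 kb upstream holds overlapping AP-1 and SOX matches. The windows 7.2 kb upstream, 108.0 kb downstream and 145.7 kb downstream each hold a SOX match. The window 300.1 kb downstream holds a POU octamer match, and the windows 10.6 kb and 79.8 kb upstream hold none. A match describes letters and is not evidence of binding, and the lack of an exact match does not show that a site is absent.

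Peaks of a list that overlapped were merged into regions, which left 82885 parent and 107480 ΔSRR2–18 regions genome-wide. Reads at each summit were solved from the deposited fold enrichment and −log10 p. The lowest background, which is the genome-wide mean pileup, was 38.8 reads for parent NSPCs and 19.7 for ΔSRR2–18 NSPCs, so the parent pool was 1.98 times deeper by this measure. Summit height below means reads at the summit divided by this mean, which puts both lists on a scale where 1 is the genome-wide mean. Ranks are given as the top percent of a region's own list. The cultures were checked against 9 neural stem/progenitor marker genes (Nes, Sox1, Sox2, Sox9, Vim, Fabp7, Msi1, Prom1 and Hes5), and 9 of 9 had a region within 1 kb of a start site in each list. Among all protein-coding genes, 61.8% had one in the parent list and 65.2% in the ΔSRR2–18 list. Of 5 pluripotency markers, 1 (Esrrb) had such a region in either list, while Pou5f1, Nanog, Zfp42 and Dppa5a had none. Mesoderm markers had one for 1 of 3 genes in the parent list and 2 of 3 in the ΔSRR2–18 list, and endoderm markers for 2 of 3 and 3 of 3.

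Most open regions around Sox2 were listed for 1 genotype and not the other. The parent list held 24 regions outside the deleted stretch, 16 upstream and 8 downstream of it, and the ΔSRR2–18 list held 18, 10 upstream and 8 downstream. Of the 24 parent regions, 19 overlapped no ΔSRR2–18 region (79.2%, 95% Wilson interval 59.5–90.8), where 52.3% of all parent regions did not. Of the 18 ΔSRR2–18 regions, 14 overlapped no parent region (77.8%, 54.8–91.0), where the share over the whole list was 63.1%. Both intervals cover counting error only. Neighbouring regions of 1 domain are not independent draws, so the intervals do not test either share against its genome-wide value. In each list, 3 regions of the domain had their summit within 1 kb of a GENCODE start site, and genome-wide such regions were shared more often than others. With these left out, the unshared counts were 19 of 21 parent regions (90.5%, 71.1–97.3) against 61.6% genome-wide, and 13 of 15 ΔSRR2–18 regions (86.7%, 62.1–96.3) against 71.5%. One unshared parent region covers a start that RefSeq alone gives (Gm35255), and without it the parent count was 18 of 20.

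**Figure D1:**
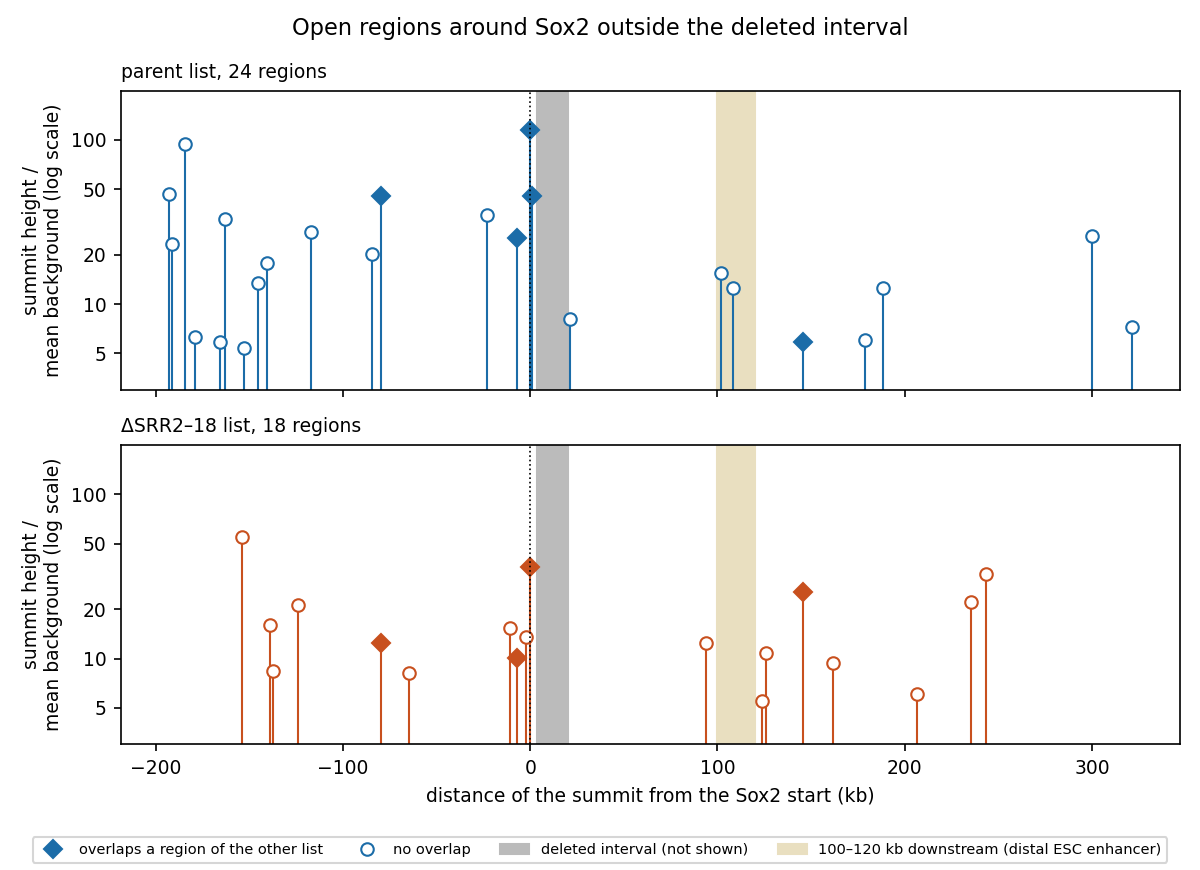
Summit height over the genome-wide mean background (log scale) against distance from the Sox2 start in kb, for the 24 parent regions (upper panel) and the 18 ΔSRR2–18 regions (lower panel). Filled diamonds overlap a region of the other list and open circles do not. The grey band is the deleted interval, whose regions are not drawn, and the tan band is 100 to 120 kb downstream, where 2 parent regions and no ΔSRR2–18 region lie. The tallest parent point is the Sox2 promoter at 115, and the tallest ΔSRR2–18 point is 154.2 kb upstream at 54.7.

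The regions were of middling strength within their lists. Parent heights ran from 5.38 to 115 with a median of 19.1, beside 17.6 for all parent regions. ΔSRR2–18 heights ran from 5.54 to 54.7 with a median of 13.0, beside 18.0 for all regions of that list. By height, 13 of 24 parent regions and 6 of 18 ΔSRR2–18 regions were in the stronger part of their list (top 50%), and by fold enrichment 13 and 9 were. The density was 4.50 regions per 100 kb in the parent list and 3.37 in the ΔSRR2–18 list. The body of Sox2ot held 17 parent and 10 ΔSRR2–18 regions, other gene bodies held 2 and 3, and intergenic DNA held 5 in each list.

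At Sox2 itself, accessible chromatin was listed for both genotypes and was lower relative to the mean after deletion of SRR2–18. The tallest promoter summit lay 101 bp upstream of the RefSeq start (34649995) in the parent list, with 4478 reads and a height of 115. In the ΔSRR2–18 list it lay 109 bp upstream, with 711 reads and a height of 36.2. The log2 ratio of ΔSRR2–18 to parent height was -1.67 ± 0.058 (counting SE, interval -1.79 to -1.56). The 39072 groups of overlapping regions genome-wide had a median of -0.24, and the promoter lay at percentile 6.57 of them. Relative to that median its ratio was -1.43.

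Across the promoter and the exon, the fold difference was larger on the upstream side. The parent region from 34648709 to 34650183 had 3 summits, and the one farthest upstream, 1021 bp before the start, had a height of 60.5. The nearest ΔSRR2–18 summit, 540 bp before the start and 481 bp away, had a height of 7.63. The middle parent summit, 366 bp before the start, reached 65.6, and its ΔSRR2–18 neighbour 20 bp away reached 13.0, which is 5.04-fold lower. The main summit was 3.19-fold lower. In the exon, the parent summit 1106 bp past the start had a height of 45.4 and the ΔSRR2–18 summit 78 bp from it had 24.8, which is 1.83-fold lower. These folds are of depth-scaled heights in single pools.

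Fold enrichment, which divides by a local background, differed less. In the parent list this background was 13.8 times the genome-wide mean at the promoter and 14.1 times at the exon, and in the ΔSRR2–18 list it was 3.77 times at the promoter. A local background can hold signal of the promoter itself. In the parent list it can also hold reads of the stretch that the mutant lacks, where a region 4.0 kb from the start had a height of 40.0. The part of either in these backgrounds was not tested, so similar fold enrichments do not show similar accessibility. The fold enrichment of the main summit was 8.37 in the parent list and 9.48 in the ΔSRR2–18 list, at the top 58.2% and the top 55.9%. The exon summit of the parent list had a fold enrichment of 3.21, at the top 96.4% of its list by that measure and the top 23.8% by height. The ΔSRR2–18 region from 34649353 to 34651388 had 7 summits and covered both the promoter and the exon, which the parent list gave as separate regions 608 bp apart. It ended at the base where the guide used to insert the mCherry tag cuts, and the parent exon region ended 23 bp before that base. Both lines carry the tag on the 129 allele, and its part in these borders was not tested.

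**Figure D2:**
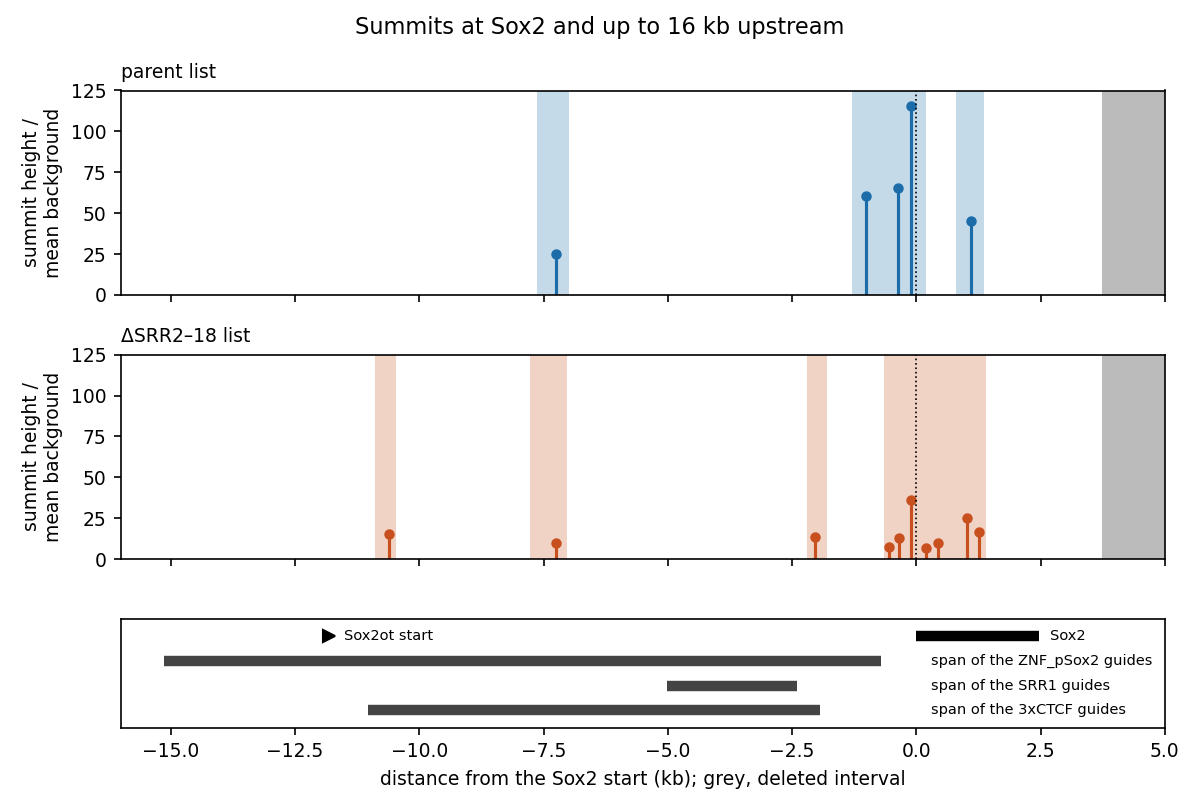
Summit height over the genome-wide mean background (linear scale) against distance from the Sox2 start in kb, for the parent list (top) and the ΔSRR2–18 list (middle). Points are summits, pale bands are listed regions and the grey band is the start of the deleted interval. The bottom panel shows the Sox2 gene, a Sox2ot start and the spans between the guides of the study's other deletions. The 4 parent summits at Sox2 stand between 45.4 and 115, above the 7 ΔSRR2–18 summits there, which stand between 6.82 and 36.2.

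The start sites of Sox2ot were mostly without a listed region. Its basic annotation has 10 start sites on the forward strand between 34104270 and 34682619, and 3 groups of them lie in the window outside the deletion. At the group 89.7 kb upstream of Sox2, the nearest conservative region was 4898 bp away in the parent list and 9526 bp away in the ΔSRR2–18 list, although the parent optimal list had 1 region there with an IDR score of 743. At the start 60.0 kb upstream, the nearest regions were 19533 bp and 4311 bp away. At the group 11.8 kb upstream, a ΔSRR2–18 region from 34639109 to 34639523 lay 812 bp away with a height of 15.4, and the nearest parent region was 4061 bp away. Thus 0 of 3 groups in the parent list and 1 of 3 in the ΔSRR2–18 list had a region within 1 kb. That ΔSRR2–18 region is also within 1 kb of Mir1897, a microRNA gene, and its window is printed above as 10.6 kb upstream. The matching share over all start sites of noncoding genes was not computed, so the counts of 0 and 1 of 3 groups say little about Sox2ot.

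Upstream of Sox2, the span between the 3xCTCF guides (34638960 to 34648052) held 1 parent region and 3 ΔSRR2–18 regions. One region there, 7.2 kb upstream of the start and 514 bp from the start of the predicted gene Gm42692, was listed for both genotypes with summits 2 bp apart. Its parent height was 25.1 and its ΔSRR2–18 height was 10.1, a log2 ratio of -1.31 ± 0.11 (counting SE, interval -1.53 to -1.09). The other ΔSRR2–18 regions in this span, 10.6 kb and 2.0 kb upstream, overlapped no region of either parent list.

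The region 2.0 kb upstream, from 34647791 to 34648206, had a height of 13.4 and a fold enrichment of 3.50, at the top 62.6% and the top 97.2% of the ΔSRR2–18 list. It holds 1 of 2 CTCF consensus matches found between the Sox2 start and the farthest upstream guide (34634847 to 34634869), at 34647887 to 34647898 on the forward strand. The other match, at 34640898 to 34640909 on the reverse strand, lay in a region 9.1 kb upstream that only the ΔSRR2–18 optimal list holds, with an IDR score of 948. Neither match was inside a parent region of any list. The study described more CTCF-bound regions upstream of the promoter than these 2 matches, so the exact search does not find every site. The gap from the 2.0 kb region to the parent promoter region was 503 bp. At the nearest parent summit, 1021 bp before the start, the parent background was 12.9 times the genome-wide mean, close to the height of 13.4. Over a background that high, a region of this height might not be called. Its absence from the parent lists is therefore weakly determined. The span between the SRR1 guides, from 34644984 to 34647593, held no region in any of the 4 lists. The background in that span was not computed.

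Between the end of the deletion and 100 kb downstream of the Sox2 start, each list held 1 region. The parent region from 34671030 to 34671753 began 975 bp past the removed stretch and had a height of 8.08, at the top 78.0% of its list. The first ΔSRR2–18 region past the removed stretch began 73468 bp from it, at 34743523 to 34744061, with a height of 12.4. The 71.8 kb between them held no region in either conservative list, and 1 region of the parent optimal list fell in it, 92.8 kb downstream. This was the longest stretch without a region in the domain.

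In the window 100 to 120 kb downstream, around the distal ESC enhancer, 2 regions were listed for parent NSPCs and 0 for ΔSRR2–18 NSPCs. The parent regions were at 34751465 to 34752078, with a height of 15.5 and a fold enrichment of 15.2, and at 34757643 to 34758243, with a height of 12.5 and a fold enrichment of 12.2. They ranked at the top 54.1% and 61.7% by height and at the top 25.9% and 38.2% by fold enrichment, so they were ordinary members of the parent list. Neither ΔSRR2–18 list held a region in the window. Genome-wide, 61.6% of parent regions outside promoters overlapped no ΔSRR2–18 region, so 2 unshared regions are not unusual. Scaled to the ΔSRR2–18 depth, the parent summits would have −log10 p of 242 and 173, above 52.8% and 42.4% of the regions listed for ΔSRR2–18 NSPCs. The nearest ΔSRR2–18 region ended 7404 bp before the first of them. The borders of the SCR were not located by sequence here, and the window, set by distance, is wider than the SCR. By distance from the Sox2 start, the region 101.8 kb downstream lies before the span known as the SCR and the region 108.0 kb downstream lies within it.

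Besides the Sox2 promoter and the region 7.2 kb upstream, 2 distal regions were shared. The region 79.8 kb upstream (34569913 to 34570419 in the parent list), in introns of Sox2ot and the predicted gene Gm42695, had 1760 parent and 246 ΔSRR2–18 reads. Its heights were 45.3 and 12.5, a log2 ratio of -1.86 ± 0.098 (counting SE, interval -2.05 to -1.66). The intergenic region 145.7 kb downstream went the other way, with 228 and 499 reads. Its heights were 5.87 and 25.4, a log2 ratio of 2.11 ± 0.12 (interval 1.89 to 2.34), and its width was 453 bp in the parent list and 941 bp in the ΔSRR2–18 list. Summits of these shared regions were 8 bp and 2 bp apart, so the compared summits lay at nearly the same bases.

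Across the 4 shared groups, the depth-scaled height was lower in ΔSRR2–18 NSPCs for the 3 upstream or at the gene and higher for the 1 downstream. A lower height was found in 61.2% of shared groups genome-wide, and 5.30, 10.2, 6.57 and 94.1 were the percentiles of the groups 79.8 kb upstream, 7.2 kb upstream, at the promoter and 145.7 kb downstream. By rank in height, 3 of 4 stood lower in the ΔSRR2–18 list (52.8% genome-wide), and by −log10 p also 3 of 4 (54.4% genome-wide). By fold enrichment, 2 of 4 stood lower (57.1% genome-wide), and the promoter ranks were nearly equal on that measure. The 95% Wilson interval of 3 in 4, from 30.1% to 95.4%, is wide and covers counting error only.

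**Figure D3:**
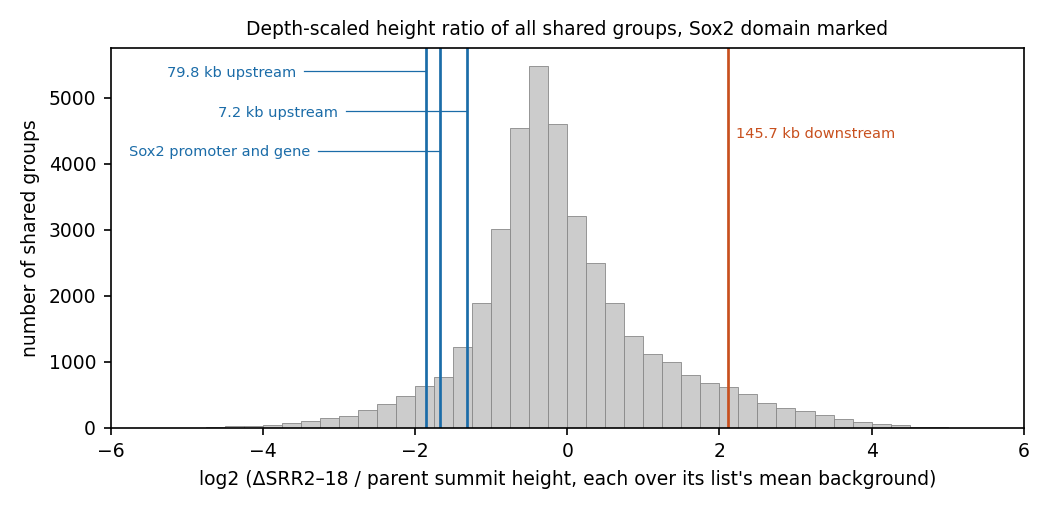
Number of shared groups genome-wide (39072 in all) by log2 ratio of ΔSRR2–18 to parent summit height, each height divided by the mean background of its list. Vertical lines mark the 4 shared groups of the Sox2 domain, 3 at -1.86, -1.67 and -1.31 on the left side of the distribution and 1 at 2.11 on the right.

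**Figure D4:**
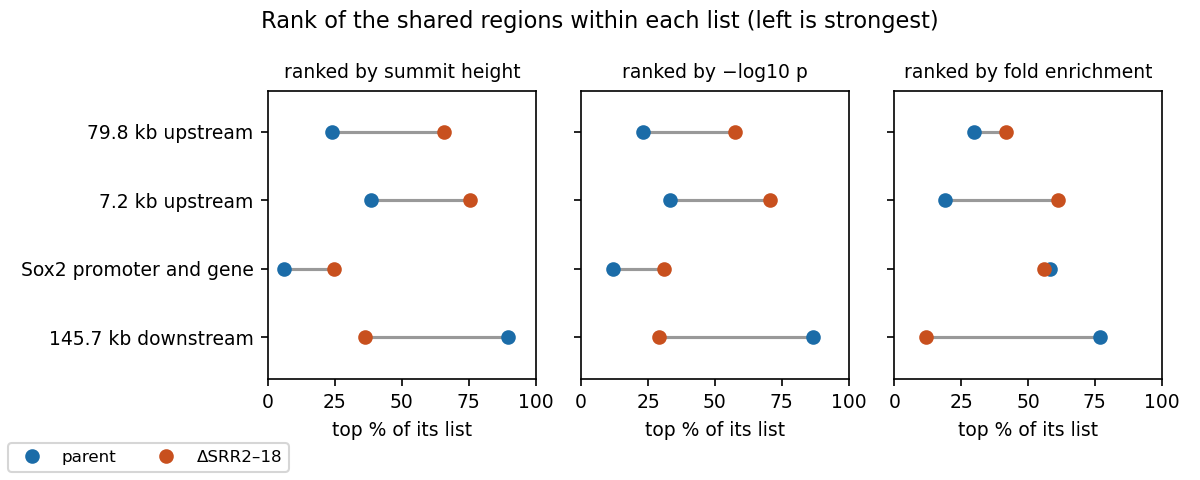
Rank of the 4 shared groups within the parent list (blue) and the ΔSRR2–18 list (orange), as top percent of the list by summit height, −log10 p and fold enrichment, with small percentages for strong regions. The Sox2 promoter moved from 5.77% to 24.6% by height but lay at 58.2% and 55.9% by fold enrichment, and the region 145.7 kb downstream ranked higher in the ΔSRR2–18 list on each measure.

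The unshared parent regions were not only weak ones. The strongest, 184.3 kb upstream (34465053 to 34466615, in a Sox2ot intron), had 3658 reads and a height of 94.2, at the top 9.12% by height and the top 7.0% by fold enrichment. At the ΔSRR2–18 depth its −log10 p would be 1697, above 96.6% of the ΔSRR2–18 list, and the nearest listed ΔSRR2–18 region was 28967 bp away. The region 163.1 kb upstream had the highest fold enrichment rank of the parent members, at the top 1.84% with a height of 33.0. Other parent regions in Sox2ot introns had heights of 46.6 at 192.8 kb upstream, 34.9 at 23.3 kb upstream and 27.4 at 117.3 kb upstream. Far downstream, the region from 34949629 to 34950369, with a height of 25.9, covered the RefSeq start of the predicted gene Gm35255.

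Of the 19 unshared parent regions, 8 would exceed the median −log10 p of the ΔSRR2–18 list at its depth, where 33.7% of all unshared parent regions would. Another 5 would lie above less than 10% of that list, so their absence there is weakly determined. In 18 of 19 cases the ΔSRR2–18 optimal list held no region either. The matching share over all unshared parent regions was not computed. That optimal list held 115655 regions beside 107480 in the conservative one, so this count says little about these members. The exception was 84.5 kb upstream, where the ΔSRR2–18 optimal list had a region with an IDR score of 546 and 75 reads over a parent region with 789 reads.

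The ΔSRR2–18 regions with no parent counterpart spread over both sides of the gene. The tallest, 154.2 kb upstream (34495582 to 34496115), had 1076 reads, a height of 54.7 and a fold enrichment of 29.9, at the top 0.362% of its list by fold enrichment and the top 13.8% by height. A parent region 616 bp from it, 153.0 kb upstream, had a height of 5.38. The ΔSRR2–18 regions 243.6 kb and 235.3 kb downstream followed with heights of 32.7 and 22.2, and that 124.1 kb upstream with 21.3. At the parent depth, 6 of 14 would exceed the median −log10 p of the parent list, where 43.9% of all unshared ΔSRR2–18 regions would. The parent optimal list, with 87442 regions beside 82885 in the conservative one, held a region over 0 of these 14. The matching share over all unshared ΔSRR2–18 regions was not computed, so this count also says little about these members.

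Some unshared regions of the lists lay near each other without overlapping. Gaps to the nearest region of the other list had a median of 13582 bp for the 19 parent regions and 11041 bp for the 14 ΔSRR2–18 regions, with 2 and 3 gaps under 1 kb. The smallest gaps were 616 bp and 503 bp. Gaps over all unshared regions of the lists were not computed, so these values describe the domain alone. At 140.6 kb upstream, a parent region with a height of 17.8 ended 994 bp before a ΔSRR2–18 region with a height of 15.9.

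The remaining members had heights of 23.1 or less. Parent regions in Sox2ot introns at 191.1, 179.0, 165.9 and 145.5 kb upstream had heights of 23.1, 6.28, 5.87 and 13.4, and regions in introns of the predicted gene Gm21388 at 178.6 and 188.2 kb downstream had 6.08 and 12.6. The parent region nearest the downstream edge of the window, 321.2 kb from Sox2, had a height of 7.21. ΔSRR2–18 regions at 137.3 and 64.6 kb upstream had heights of 8.34 and 8.14. Those at 123.9 and 125.8 kb downstream, in introns of the predicted gene Gm38509, had 5.54 and 10.8, and those at 161.9 and 206.3 kb downstream had 9.36 and 6.05. Beyond the window, the nearest parent regions were 204.4 kb upstream with a height of 89.9 and 410.3 kb downstream with 4.97. The nearest ΔSRR2–18 regions beyond it were 316.2 kb upstream with a height of 72.4 and 417.0 kb downstream with 79.7. At the deletion border, the first parent region inside the removed stretch, 4.0 kb from the Sox2 start, had a height of 40.0.

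The 8 members of the optimal lists alone had fold enrichments below the medians of those lists, 9.31 for parent and 9.83 for ΔSRR2–18 NSPCs. Parent ones lay 90.7, 81.7 and 58.6 kb upstream and 92.8, 248.8 and 256.3 kb downstream, with IDR scores from 567 to 917 and fold enrichments from 3.10 to 5.62. The ΔSRR2–18 ones lay 84.4 and 9.1 kb upstream, with IDR scores of 546 and 948 and fold enrichments of 3.68 and 4.65.

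Motif content was compared with that of all regions of the same list. SOX factors bind as partners of POU factors, AP-1 is a dimer of FOS and JUN proteins induced by growth signals, and the 100 bp on each side of each strongest summit were searched for all 8 motifs. In the parent list, 10 of 24 members held a SOX match (41.7%, against 40.5% of all parent regions), 3 held a POU octamer (12.5% against 4.16%) and 0 held an AP-1 match (7.28% of all). In the ΔSRR2–18 list, 11 of 18 held a SOX match (61.1% against 33.7%), 0 held a POU octamer (2.28% of all) and 7 held an AP-1 match (38.9% against 37.9%). The Sox2 promoter counts among these 11 but not among the 10 parent members, because its parent window is shifted by 8 bp. All 7 AP-1 matches were in the 14 unshared ΔSRR2–18 regions, which is 50.0% beside 50.7% of all unshared regions of that list. The POU octamers were 153.0 kb upstream and 178.6 and 300.1 kb downstream of Sox2, each in an unshared parent region.

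A narrower search removed the SOX difference. Within 50 bp of the summit, 3 of 18 ΔSRR2–18 members held a SOX match (16.7% against 17.7%) and 6 of 24 parent members did (25.0% against 23.8%). The 3 POU octamers were within 50 bp as well (12.5% against 2.11%). CTCF matches stood at 0 of 24 parent and 1 of 18 ΔSRR2–18 members, beside 7.98% and 5.07% of all regions. ZIC matches stood at 2 and 2 members (12.1% of all parent and 9.04% of all ΔSRR2–18 regions) and GC boxes at 1 and 2 (16.3% and 12.9%). HOX-PBX matches stood at 0 in both lists, where 2.16% of parent and 7.60% of ΔSRR2–18 regions held one. NFI matches also stood at 0 in both, where only 0.177% and 0.0661% of all regions held one. The median GC content was 52.5% for parent members (52.2% for all parent regions) and 48.8% for ΔSRR2–18 members (48.3% for all).

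Start sites of genes related to SOX2 had a region in nearly every case. Of 9 SOXB and partner genes (Sox1, Sox3, Sox14, Sox21, Pou3f1, Pou3f2, Pou3f3, Pou3f4 and Pax6), 9 had a region within 1 kb of a start site in the parent list and 8 in the ΔSRR2–18 list, where 61.8% and 65.2% of all protein-coding genes did. The exception was Sox14, whose parent region ranked at the top 91.8% by height. All 4 known SOX2 target genes examined (Nes, Hes5, Notch1 and Egfr) had one in each list. By the height of its best region, 7 of the 8 SOXB and partner genes and 4 of the 4 target genes ranked lower in the ΔSRR2–18 list, where 59.5% of protein-coding genes with a region in both lists did. So did 7 of the 9 neural stem/progenitor markers, some of which are in these lists too. Among the other markers with a region in both lists, Esrrb, Tbx6 and Gata4 ranked lower and Foxa2 ranked higher. Genes near the top of the parent list have little room to rank higher, so 59.5% is not a matched share. Sox1, a SOXB1 gene of neural progenitors, stood at the top 21.01% of the parent list and the top 67.3% of the ΔSRR2–18 list, and Sox3, its X-linked relative, at 18.0% and 67.7%. Hes5, a Notch effector, stood at 1.80% and 43.5%, and Pou3f1, a neural POU factor, at 0.863% and 19.6%. Pou3f4 went the other way, from 56.8% to 28.6%. These genes were named after their values were seen. Ranks of the listed genes by fold enrichment or −log10 p were not computed, and at the Sox2 promoter the order by fold enrichment was the reverse of that by height.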

How the data were processed

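The authors profiled 3 parent and 3 ΔSRR2–18 NSPC cultures by ATAC-seq, and groups were taken from the sample labels. Reads went through the ENCODE ATAC-seq pipeline with MACS2 peak calling, and the authors combined cultures by IDR (irreproducible discovery rate), a filter on how well peak ranks repeat. The deposited lists, in mm10, give each peak a score from its IDR, a fold enrichment (a ratio to local background) and a −log10 p, as well as a −log10 q that was not used here. The submitters' processing notes also name deepTools. No depth per culture can be taken from pooled lists. Reads of castaneus alleles that differ from mm10 can map less often.

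Conservative lists were used, with optimal lists as an alternative. Regions within a list were merged where they overlapped, and 1 bp of overlap made regions shared, which was checked with bedtools 2.31.1. Reads and background at each summit were solved from fold enrichment and −log10 p with the MACS2 Poisson model, and came out whole (within 0.05) for 99.9993% of parent peaks and 100% of ΔSRR2–18 peaks. They are pileup heights, not distinct fragments, so Wilson intervals and counting SEs (95%) cover counting error only. Positions are 1-based, with distances from the RefSeq Sox2 start (GENCODE places it 410 bp downstream). Start sites came from GENCODE M21, with RefSeq added for naming starts in the window, and a region was assigned to a start within 1 kb. Guide and reference sequences were matched exactly to mm10 on chromosome 3. Analyses used Python 3.11.15, numpy 2.4.6, pandas 2.3.3 and scipy 1.17.1, and read recovery, merging, overlaps and motif matching were tested on simulated data.

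Every member was accounted for, and those at a start site, in an element the study cut, in the SCR window or listed for both genotypes were described singly, along with Sox2, Sox2ot and genes annotated in the window. Unshared regions singled out for their height or rank were picked after values were seen. The members and gene lists were chosen with earlier results of these data known. Alternatives were a stricter IDR limit, lists of equal length, other overlap and merge rules, common −log10 p limits at 1 depth, other ranks, and other start-site and motif distances.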

Additional observations from a re-analysis of the deposited data

How the results depend on the processing

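Of 72 values recomputed under other settings, 56 stayed within 1.5 times the main count or within the counting interval of the main value, and 16 moved. Most that moved were the ranks of the Sox2 promoter by height, at the top 5.77% of the parent list and 24.6% of the ΔSRR2–18 list. They became 5.47% and 22.9% with the optimal lists, 6.42% and 27.6% at an IDR of at most 0.01, 6.10% and 25.4% with intervals up to 500 bp apart merged, 11.97% and 31.1% by −log10 p, and 58.2% and 55.9% by fold enrichment. The ΔSRR2–18 rank also became 30.2% and 31.9% with both lists cut to equal length by fold enrichment and by −log10 p. Under fold enrichment the parent rank was the weaker of the pair, which turned the order. Regions listed for ΔSRR2–18 NSPCs alone fell from 14 to 9 with lists of equal length by −log10 p, and shared groups from 4 to 2 at 50% reciprocal overlap. The 2 that dropped out were the Sox2 promoter and the region 145.7 kb downstream. Sox2ot start groups with a region rose from 0 to 1 in the parent list with the optimal lists, and fell from 1 to 0 in the ΔSRR2–18 list within 500 bp. The cause of these shifts was not tested beyond the construction of each alternative.

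No paired analysis was possible because the deposited lists pool the cultures of each genotype, and leaving out a replicate was not run for the same reason. Depth limits the weaker parent regions: a region near the lower end of the parent list may fall under the limit of the shallower ΔSRR2–18 pool. One clone per genotype and single pools mean that no spread between cultures stands behind any value.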
